A study of Mus musculus with 4 samples.

Results

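The cytosolic ribosomal protein genes were taken as the rows of the count table whose symbol is Rpl or Rps followed by a number with an optional a, x or l ending, or is Rpsa, Rplp0, Rplp1 or Rplp2. This rule found 82 of 16846 rows: 46 genes of large-subunit proteins, 30 of small-subunit proteins, and 6 with an l ending (Rpl3l, Rpl6l, Rpl32l, Rpl36al, Rpl39l and Rps27l). The label fits nearly all of them, since 81 are protein-coding in the RefSeq annotation and 1, Rpl6l, is listed there as a pseudogene. Of 79 standard mammalian ribosomal protein genes, all 79 had rows and 76 were found by the rule. Fau and Rps3a1, which carry other names, are described beside them.

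Ribosomal proteins pair with ribosomal RNA to form the large subunit, which joins amino acids, and the small subunit, which reads the messenger RNA. Their genes are among the most abundantly transcribed of a growing cell, and an imbalance between the proteins and ribosomal RNA is known to activate p53. The messenger RNAs typically begin with a cytosine and a run of pyrimidines, called a 5' terminal oligopyrimidine (TOP) tract, through which the kinase mTOR and the RNA-binding protein Larp1 control their translation and stability.

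The libraries are polyadenylated RNA of HT22, an immortalised line derived from mouse hippocampal neurons. The study lowered or raised the long noncoding RNA Ntoco in these cells and asked which pathways are tied to it. There were 4 groups with 2 libraries each: a control short hairpin RNA (shRNA, sh-Ctrl), an shRNA against Ntoco (sh-Ntoco), an empty vector (Vector) and the overexpression of Ntoco (Lv-Ntoco). The labels list 1 sample per group and number the cells HT22 to HT25 in the titles, while the cell line field is HT22 throughout; column names of the table write pcDNA for the vector, so the delivery of Ntoco, by plasmid or lentivirus, is uncertain, and so is that of its control. No promoter, clone, dose, time or treatment is given for any group. Nothing states that the 2 libraries of a group came from separate cultures, so every p measures only the spread between these libraries, which may be technical.

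Total counts ran from 18452588 to 19859041 per library. Ntoco has no row, and its level, which would check the group labels, was not analysed here. The defining markers of neurons were at or near 0: 6 of 12 had rows, 1 (Syp) had enough counts to be tested, and the 6 summed to 0.74 to 1.54 CPM (counts relative to library size, scaled between libraries by the trimmed mean of M-values, TMM). Knockdown library 2 and empty vector library 1 stood apart from the rest in the markers of several other cell types, though not of all. The fibroblast markers, of which 6 of 7 had rows and Lum was at 0 in every library, summed to 1460 and 1330 CPM in these libraries and to 2110 to 4850 CPM elsewhere. The astrocyte markers, 5 of 6 with rows, summed to 14.1 and 8.4 CPM there and to 30.8 to 53.6 CPM elsewhere, and the microglia markers, 6 of 7 with rows and Ptprc at 0 throughout, to 2.37 and 2.09 against 4.28 to 7.74 CPM. The oligodendrocyte markers, 5 of 7 with rows, did not set them apart, at 10.6 and 9.25 CPM against 9.71 to 13 CPM. A sum can also hide its members. Gfap had a log2 ratio of 0.56 in vector against shRNA control, where the other 3 astrocyte markers tested were negative. The part of these differences in the results below was not tested, and fewer cells of a type and less RNA per cell cannot be told apart in such bulk RNA. Ribosomal protein genes have many near-identical processed pseudogenes, and how reads shared between copies were counted is not given in the sources used here, so the level of any single gene is uncertain.

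The feature that gives this gene class its common control lies at the start of its transcripts. RefSeq promoter entries (GRCm38.p6) were matched for 61 of the 82 genes. A tract of C followed by at least 4 bases of C or T, beginning exactly at the annotated start, was found in 14 of the 61 genes (23.0%), against 3.01% of all 27025 genes with an entry. The match depends on the annotated start being right to the base, so a gene without a match may still carry a tract a few bases away. The windows below cover 40 bases before and 20 after the start for Rpl15 and Rpl35, which have the longest tracts, for Rps10, which ties with Rpl32l as the next longest, for Rps6, Rps27 and Rplp2, which are described by value further on, and for Rpl35a, one of the genes with the larger overexpression ratios. Capitals mark the pyrimidine tract, and each is written 5' to 3' on the strand of the gene.
Rpl15 (chr14:18270967-18271026, minus strand): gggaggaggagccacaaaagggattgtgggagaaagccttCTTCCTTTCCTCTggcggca
Rpl35 (chr2:39005112-39005171, minus strand): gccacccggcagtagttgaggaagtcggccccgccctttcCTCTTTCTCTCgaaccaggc
Rps10 (chr17:27635225-27635284, minus strand): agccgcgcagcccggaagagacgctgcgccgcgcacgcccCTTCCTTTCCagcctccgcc
Rps6 (chr4:86857348-86857407, minus strand): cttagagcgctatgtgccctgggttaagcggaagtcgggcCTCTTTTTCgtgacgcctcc
Rpl35a (chr16:33056442-33056501, plus strand): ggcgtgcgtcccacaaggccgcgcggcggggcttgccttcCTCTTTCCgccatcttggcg
Rps27 (chr3:90213629-90213688, minus strand): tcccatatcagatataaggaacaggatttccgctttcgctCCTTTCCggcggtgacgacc
Rplp2 (chr7:141447611-141447670, plus strand): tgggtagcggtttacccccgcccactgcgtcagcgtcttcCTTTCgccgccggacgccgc

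The tracts shown are 13 bases long in Rpl15, 11 in Rpl35, 10 in Rps10 and 5 in Rplp2. In promoter windows of 250 bases before and 50 after the start, searched on both strands, the ETS-family letters CCGGAAG were present in 25 of the 61 genes (41.0%) against 9.93% of all genes. The YY1 letters AANATGGC were present in 11 (18.0%) against 6.96%. On the opposite strand the ETS letters begin with a pyrimidine run and can overlap a tract. A match is a description of the letters and not a bound site.

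Levels between genes were compared per length, in FPKM (counts scaled by transcript length and by library size). The median ribosomal protein gene had a mean of 611 FPKM over the 8 libraries, against 9.62 FPKM for the median of all 12115 genes with enough counts to be tested. Of the 82 genes, 74 had at least 100 FPKM and 22 at least 1000 FPKM. The highest were Rplp0, the base of the stalk that recruits elongation factors, at 2630 FPKM, the tiny Rpl41 at 2360 FPKM, Rpl12, which sits at the foot of the stalk, at 2290 FPKM, the stalk protein Rplp1 at 2180 FPKM and Rpl23a, at the exit of the peptide tunnel, at 1470 FPKM. The lowest were Rpl3l, a paralogue of Rpl3 best known from striated muscle, at 0.507 FPKM, Rpl32l at 2.18 FPKM, Rpl21 at 5.11 FPKM, Rpl29 at 35.9 FPKM and Rps27l at 54.0 FPKM. Rpl21 and Rpl29 are standard ribosomal proteins, unlike the other 3. FPKM depends on the annotated length, which ran from 346 to 5136 bases (median 808, against 3506 for all genes tested): Rps15a had the longest length and 88.0 FPKM, although it had 368 to 622 CPM.

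**Figure D1:**
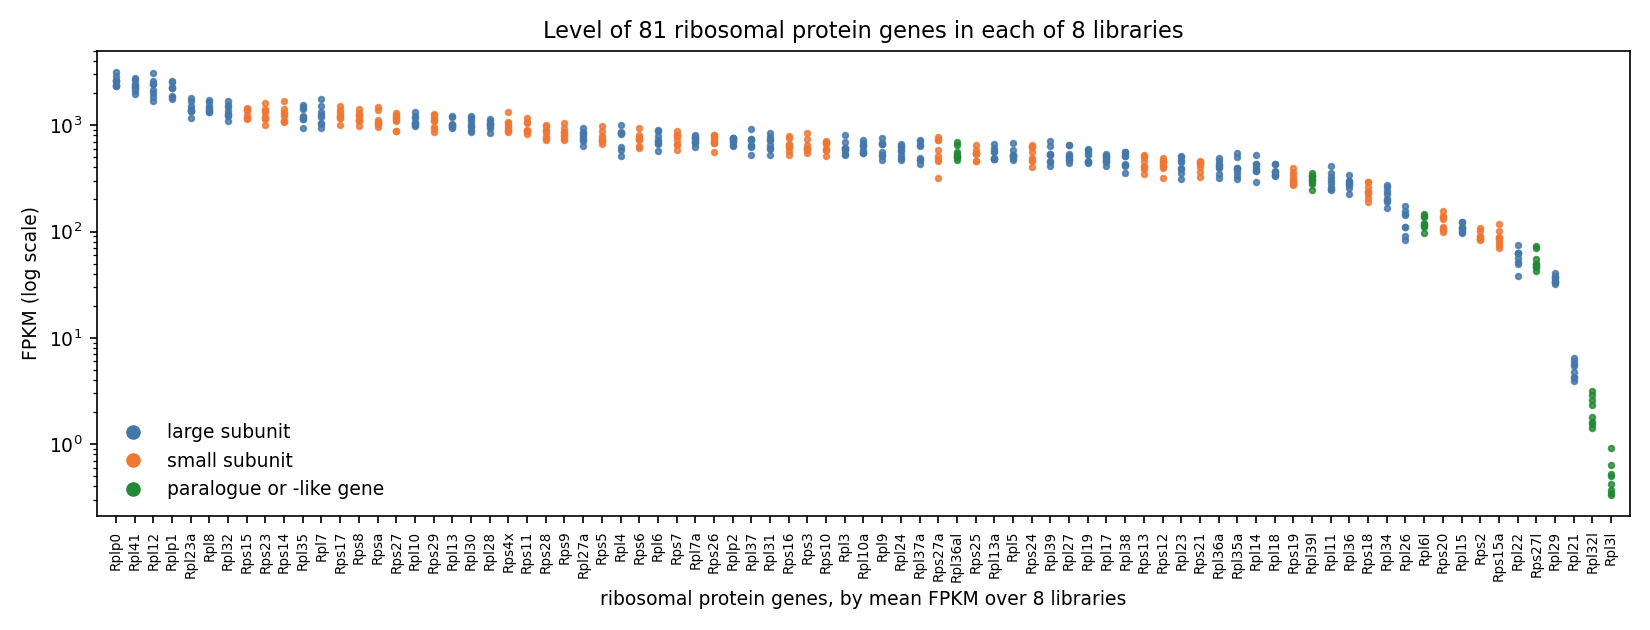
FPKM (log scale) of 81 of the 82 ribosomal protein genes in each of the 8 libraries, ordered by mean; each point is 1 library and colours mark large-subunit, small-subunit and l-ending genes. Most genes lie above 100 FPKM with libraries close together, and Rpl21, Rpl32l and Rpl3l form the low tail.

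The ratio of the highest to the lowest library was 1.59 in the median ribosomal protein gene, with a range from 1.25 in Rplp2 to 2.77 in Rpl3l, against 1.95 in the median of all genes tested. A ratio over 2 was seen in 4 of the 82: Rpl3l, Rps27a, Rpl32l and Rpl26, of which Rpl3l and Rpl32l rest on few counts. The counts of the 2 libraries of a group still differed by far more than counting noise, with a chi-square per gene of 78.4 in the overexpression group, 82.9 in the shRNA control, 147 in the knockdown and 195 in the empty vector group, where counting alone gives about 1.

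Together the 82 genes took up 4.739% and 4.307% of all counts with the control shRNA and 4.88% and 5.03% with the knockdown. They took up 4.966% and 4.507% with the empty vector and 6.028% and 5.617% with overexpression. Both overexpression libraries were therefore the highest of the 8, while the knockdown, vector and shRNA libraries lay within 1 percentage point of each other. The group means were 4.52% ± 0.305, 4.96% ± 0.106, 4.74% ± 0.325 and 5.82% ± 0.291 in that order (SD, n = 2). With 2 libraries against 2 an exact permutation test of a single share cannot go below a two-sided p of 0.333. Counts of large-subunit genes were 1.62 to 1.738 times those of small-subunit genes in every library.

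Single libraries pulled the genes as a block. Each gene was set against its own mean over the libraries on the log2(CPM + 0.5) scale, and the median of the 82 differences was -0.07 and -0.30 in shRNA control libraries 1 and 2, -0.08 and -0.01 in the knockdown, 0.08 and -0.12 in the empty vector and 0.29 and 0.19 in the overexpression libraries. Of the 82 genes, 62 had their lowest CPM in shRNA control library 2 and 55 their highest in overexpression library 1, with a further 12 highest in empty vector library 1 and 11 in overexpression library 2. Within the shRNA control group, library 2 was above library 1 in 3 of 82 genes, and within the empty vector group in 17 of 82. The same median over all genes tested lay between -0.003 and 0.02 in every library. The counts of highest, lowest and higher libraries were not made over all genes, so whether they are particular to the class is not known.

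**Figure D2:**
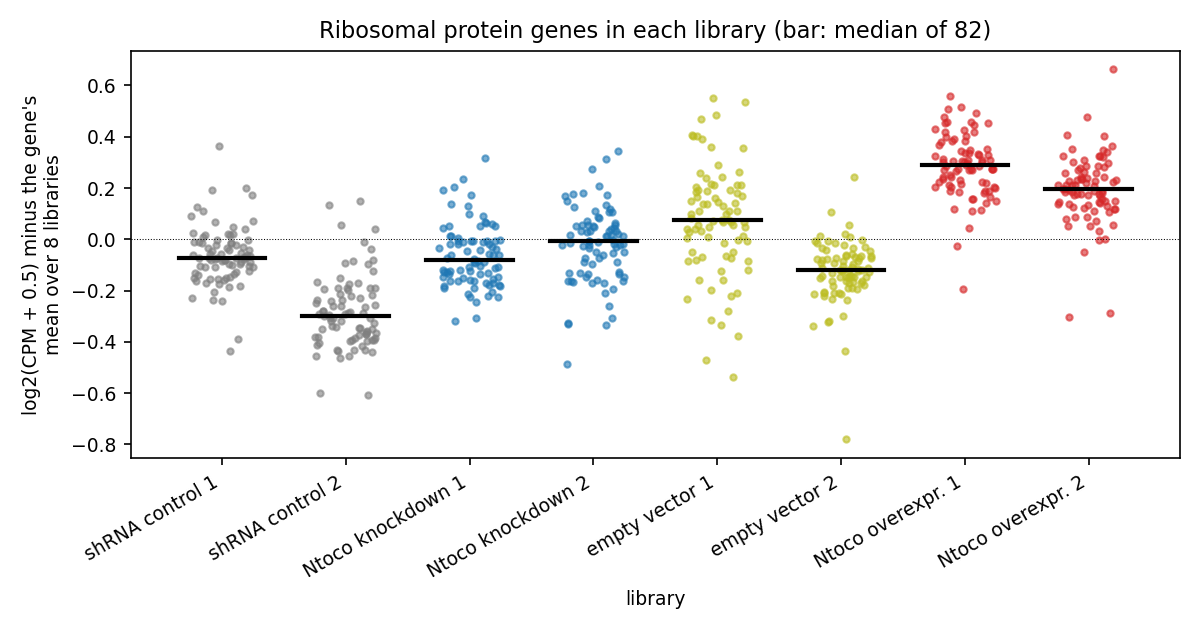
Each point is a ribosomal protein gene in 1 library, as log2(CPM + 0.5) minus the mean of that gene over the 8 libraries; bars are the medians of the 82 genes. The overexpression medians (0.29 and 0.19) are the highest and that of shRNA control library 2 (-0.30) is the lowest.

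Overexpression of Ntoco was set against the empty vector to ask whether these transcripts differ when Ntoco is raised. In 54 of the 82 genes both overexpression libraries lay above both vector libraries, in 0 both lay below, and 28 overlapped; among all genes tested 24.1% lay above and 23.1% below. The median log2 ratio of the 82 genes was 0.25, against -0.01 for all genes tested, and 77 were positive. With edgeR's quasi-likelihood test 0 of the 82 passed an adjusted p of 0.05 (lowest adjusted p 0.598), as did 0 of all genes (background 0%). An unadjusted p under 0.05 was reached by 11 ribosomal protein genes, all higher. Of all 12115 genes 7.62% passed in either direction, 428 higher and 495 lower. DESeq2's Wald test called 0 of the 82 and 0.00825% of all genes. No single gene of the class can thus be said to have changed.

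Large-subunit genes were among those with the higher ratios. Rpl7 (chromosome 1, 16101295 to 16104433) had 916 and 990 CPM with the vector and 1700 and 1460 CPM with overexpression (log2 ratio 0.73, SE 0.19, edgeR adjusted p 0.598). In Rpl7 the overexpression libraries were above all 6 others, whose highest was 1230 CPM.

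Rpl4 (chromosome 9, 64173387 to 64178562), which lines the peptide exit tunnel, had 858 and 951 CPM with the vector and 1630 and 1350 CPM with overexpression (log2 ratio 0.72, SE 0.22). The shRNA control of Rpl4, at 1340 and 1320 CPM, lay just below the second overexpression library. Rpl37a (chromosome 1, 72711260 to 72713813) had 265 and 290 CPM with the vector and 434 and 421 CPM with overexpression (log2 ratio 0.62, SE 0.24). Of its shRNA control libraries, at 376 and 266 CPM, the second was among the vector values and the first lay between the groups. Rpl3l had a ratio of 0.87 with an SE of 0.52, at 0.618 to 1.71 CPM, which is too few counts to place it.

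**Figure D3:**
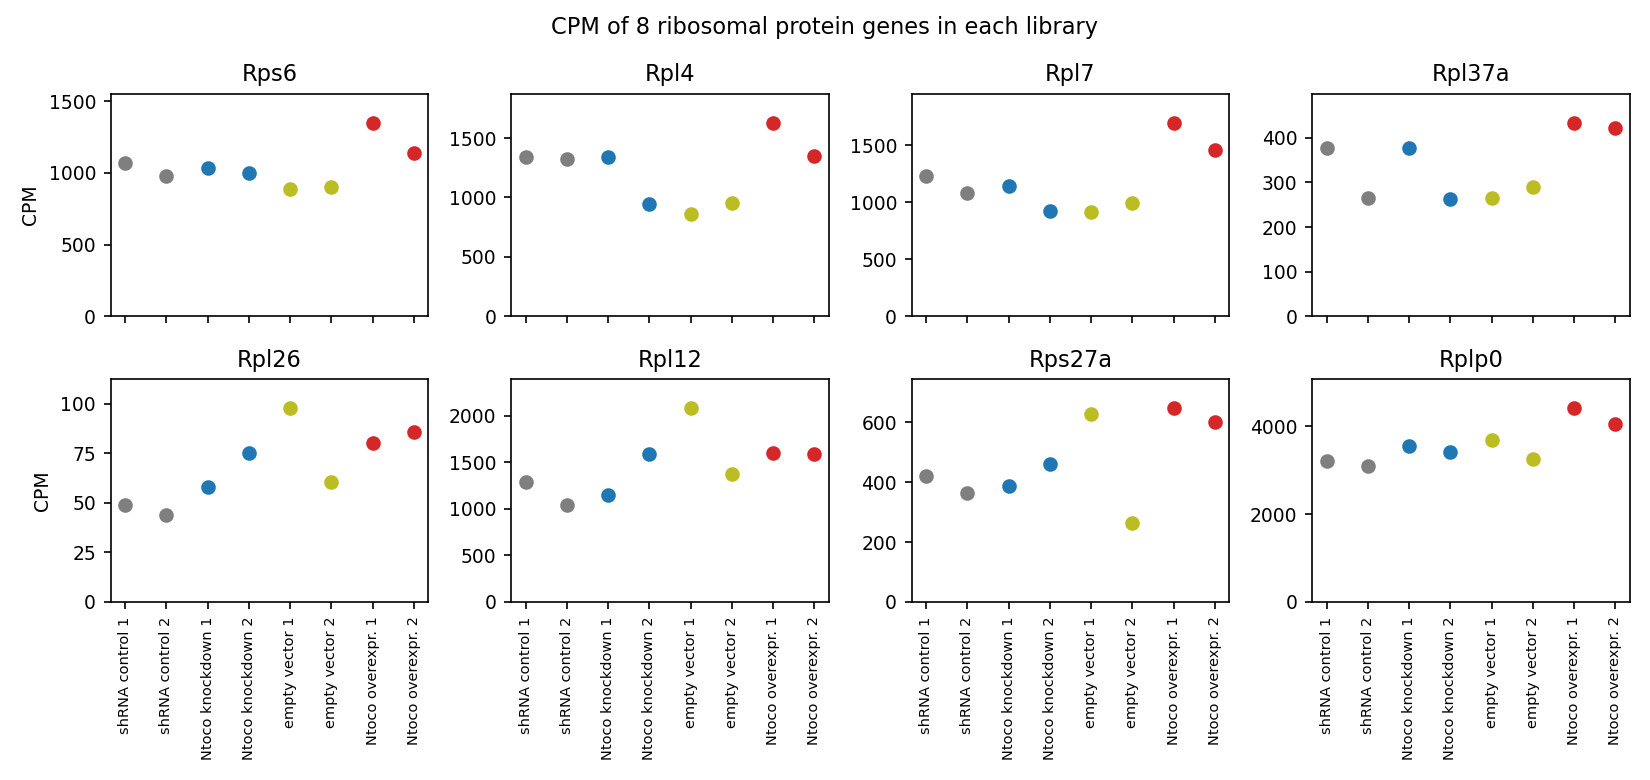
CPM of 8 ribosomal protein genes in each library, with axes starting at 0; points are single libraries. In Rpl4 knockdown library 2 and both vector libraries are the low ones, in Rpl7 both overexpression libraries are the highest, and in Rps27a the vector libraries lie at 626 and 263 CPM.

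Some genes were named for a known role of their own. Rps6, the target of the S6 kinases downstream of mTOR, had 887 and 898 CPM with the vector and 1350 and 1140 CPM with overexpression (log2 ratio 0.48, SE 0.17). Rpsa, which also serves as a laminin receptor, had 2010 and 2030 CPM and 2830 and 2650 CPM (0.44, SE 0.17), with both overexpression libraries above the other 6. Rpl11, which binds and inhibits the p53 ligase Mdm2, had 413 and 457 CPM and 673 and 571 CPM (0.52, SE 0.21). Its partner Rpl5 had 1090 and 958 CPM and 1420 and 1200 CPM (0.36, SE 0.18), again with no overlap. Rps19, a gene mutated in Diamond-Blackfan anaemia, had 296 and 242 CPM and 359 and 325 CPM (0.35, SE 0.19).

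Also among the 11 with an unadjusted p under 0.05 were Rpl35a, Rps15a, Rps14 and the paralogue Rps27l. Rpl35a, another gene of Diamond-Blackfan anaemia, whose tract is shown above, had 196 and 237 CPM with the vector and 338 and 303 CPM with overexpression (log2 ratio 0.57, SE 0.20). In Rps15a the values were 380 and 414 CPM and 622 and 528 CPM (0.54, SE 0.19), and in Rps14, a protein of the small-subunit platform, 691 and 640 CPM and 1030 and 870 CPM (0.51, SE 0.18). In each of these 3 genes both overexpression libraries were above the other 6 libraries.

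Of the stalk proteins, Rplp0 had 3680 and 3260 CPM with the vector and 4410 and 4040 CPM with overexpression (log2 ratio 0.28, SE 0.17), and Rplp1 had 1090 and 900 CPM and 1220 and 1250 CPM (0.32, SE 0.17). Rplp2, with its short tract, had 342 and 283 CPM and 338 and 320 CPM, so its groups overlapped (0.07, SE 0.18). Rps27a, translated as a fusion with ubiquitin, had 626 and 263 CPM with the vector and 647 and 600 CPM with overexpression. That pair of vector libraries is far apart: the log2 ratio of 0.49 became 1.25 without vector library 1 and -0.004 without vector library 2.

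At the low end, 5 of the 82 genes had negative ratios: Rpl32l (-0.17, SE 0.52), Rpl21 (-0.14, SE 0.28), Rpl12 (-0.12, SE 0.26), Rpl37 (-0.11, SE 0.24) and Rpl29 (-0.06, SE 0.20). All of them overlapped between groups. Rpl12 had 2080 and 1370 CPM with the vector and 1600 and 1590 CPM with overexpression, so the high value was vector library 1. The small-subunit genes were positive in 30 of 30 and had a median of 0.28, and the large-subunit genes were positive in 42 of 46 with a median of 0.25. The 14 genes with a tract at the annotated start had a median of 0.25, as did the 47 genes with an entry but no tract.

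**Figure D4:**
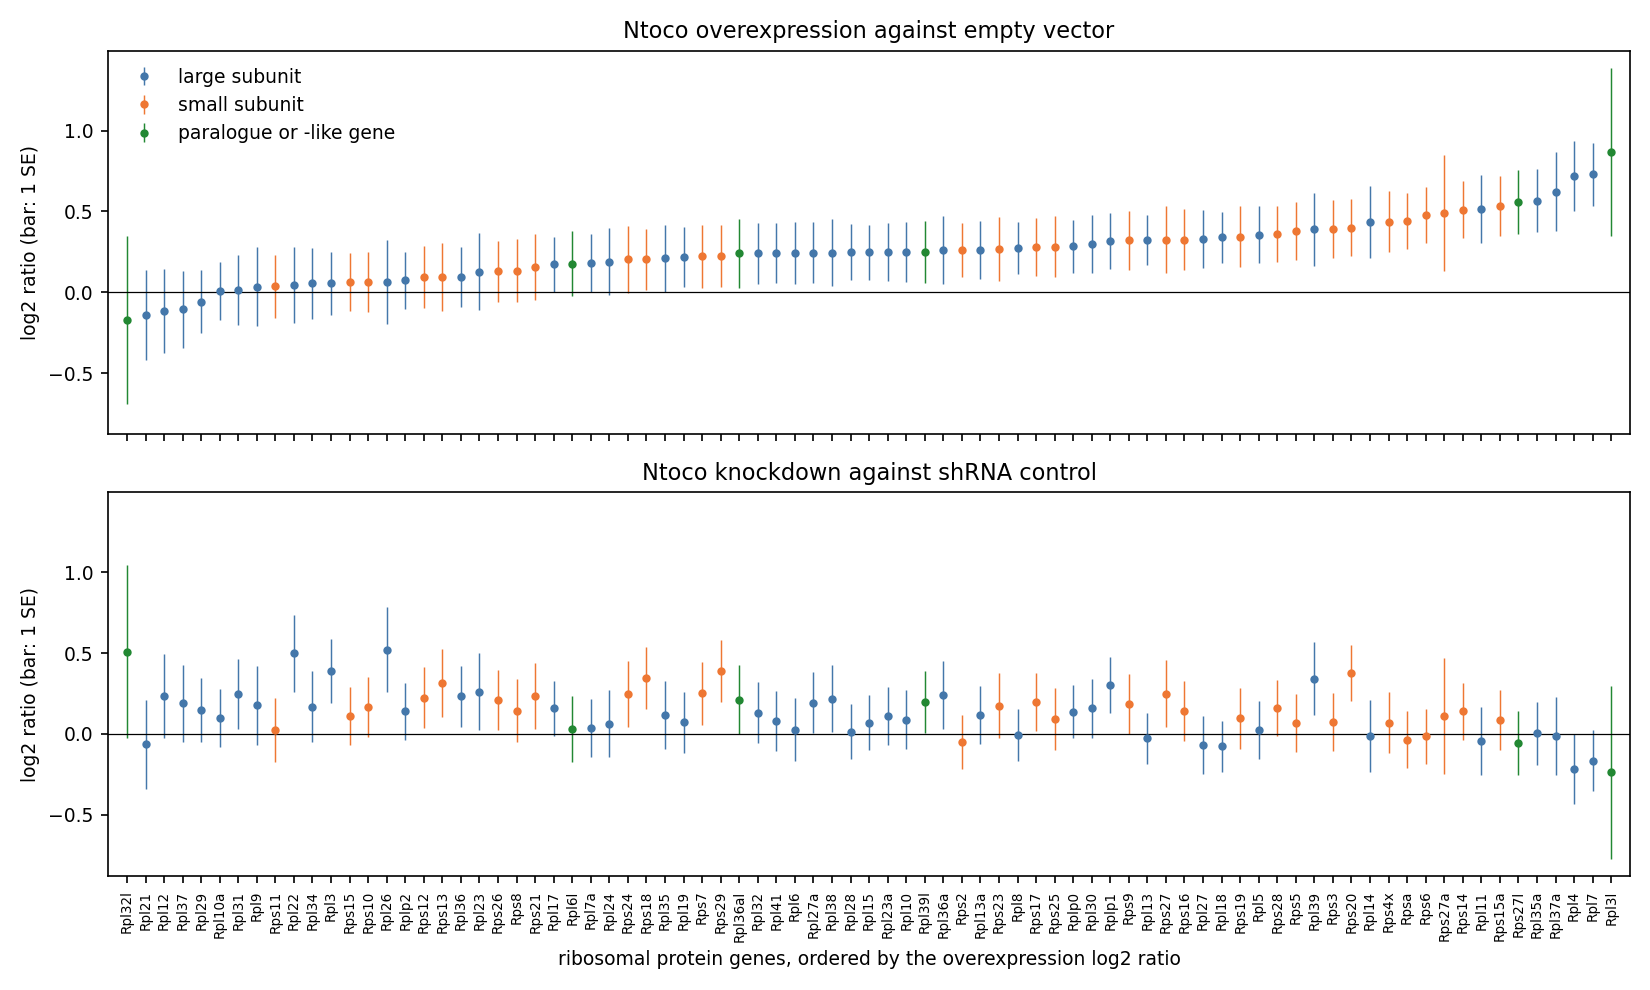
edgeR log2 ratios (points) with 1 SE (bars) of 81 of the 82 genes, for overexpression against vector (top) and knockdown against shRNA control (bottom), in the order of the overexpression ratio. The overexpression ratios drawn run from -0.17 to 0.87, and Rpl7 and Rpl4, near the right end, have knockdown ratios below 0.

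Among genes outside the class the median overexpression ratio was lower the longer the annotated length. The medians of the ribosomal protein genes were not lower at greater length, but the longest ranges held only 5 and 1 of them. Among genes under 1000 bases, the log2 ratio had a median of 0.25 in the 53 ribosomal protein genes and 0.23 in the 554 others. The median of other genes was 0.13 from 1000 to 2000 bases, 0.04 from 2000 to 4000 bases and -0.13 above 4000 bases. The ribosomal protein genes had a median of 0.25 from 1000 to 2000 bases (23 genes) and 0.36 from 2000 to 4000 bases (5 genes), above the other genes of those lengths, and the 1 gene above 4000 bases, Rps15a, had 0.54. With the length trend of each library taken out, 23 of the 82 genes lay above both vector libraries and 8 below, where 22.2% and 21.9% of all genes did, and the median log2 ratio was 0.05. Whether length, RNA quality or library preparation had a part in the difference was not tested. With 1 vector library the groups overlap less often in all genes. Leaving out vector library 1 gave 77 genes above and 1 below, where 36.9% and 36.5% of all genes did, with a median of 0.38. Leaving out vector library 2 gave 55 above and 14 below, where 41.3% and 40.3% of all genes did, with a median of 0.14.

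**Figure D5:**
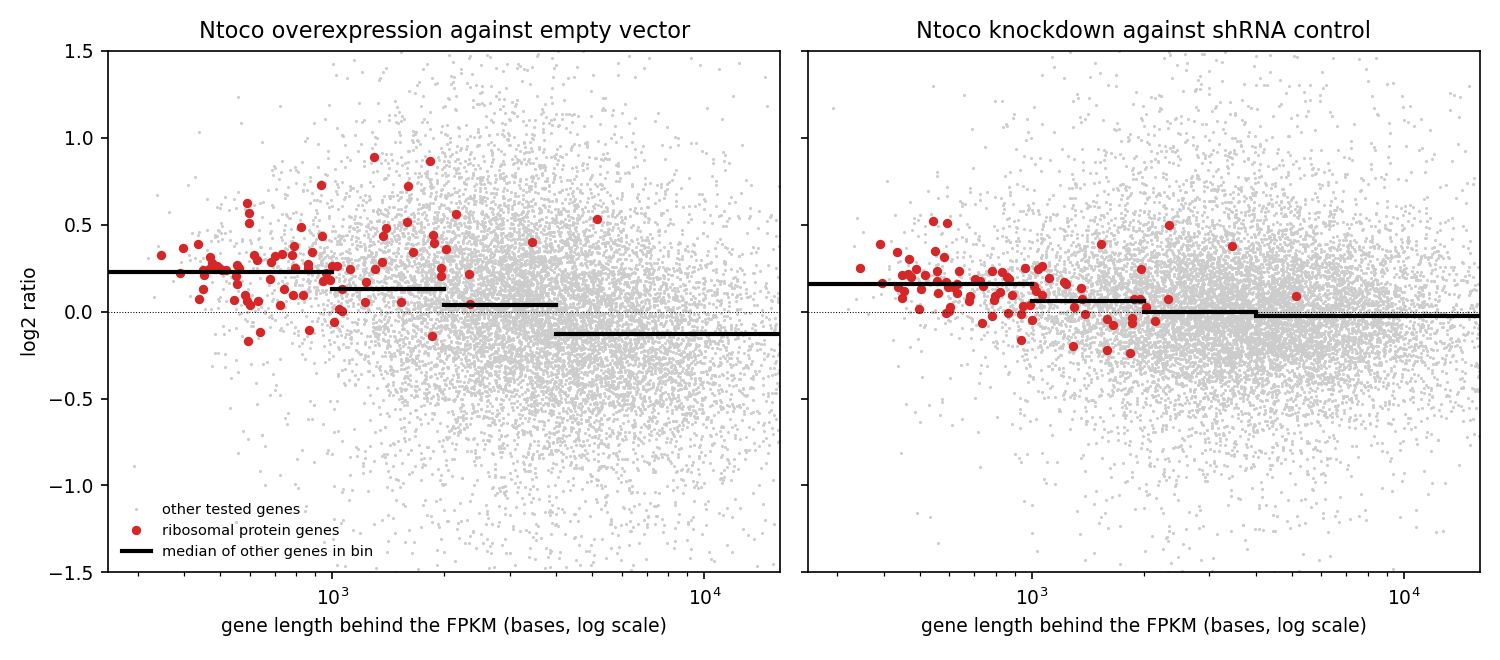
edgeR log2 ratio against gene length (log scale), for overexpression (left) and knockdown (right); red points are ribosomal protein genes, grey points other tested genes and black bars the medians of the other genes in 4 length ranges. Ratios beyond 1.5 in either direction are not drawn. With overexpression the medians of the other genes fall from 0.23 under 1000 bases to -0.13 above 4000 bases. The longer ribosomal protein genes, few of them above 2000 bases, lie no lower than the short ones by their medians.

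Knockdown of Ntoco was set against the control shRNA to ask whether the transcripts differ when Ntoco is lowered. The median log2 ratio of the 82 genes was 0.13, in the same direction as with overexpression, against 0.01 for all genes; 66 were positive and 16 negative. Both knockdown libraries lay above both controls in 26 genes and below in 2, Rps2 and Rpl18, where 15.1% and 14.1% of all genes did. With edgeR 0 of the 82 passed (lowest adjusted p 0.992) and 0 were under an unadjusted p of 0.05, a level that 3.12% of all genes reached, while 0% of all genes passed the adjusted test. DESeq2 called 0 of the 82 and 0.124% of all genes.

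The highest knockdown ratios were those of Rpl26, Rpl32l and Rpl22. Rpl26 (chromosome 11, 68901566 to 68904534), which also binds the p53 messenger RNA, had 49.0 and 43.8 CPM with the control shRNA and 58.2 and 75.1 CPM with the knockdown (log2 ratio 0.52, SE 0.26). Rpl22 (chromosome 4, 152324436 to 152334082) had 116 and 86.5 CPM with the control shRNA and 118 and 168 CPM with the knockdown (0.50, SE 0.24). In Rpl26 and Rpl22 the groups did not overlap, and the second knockdown library was the higher of its pair. Rpl32l had a ratio of 0.51 at 0.838 to 1.48 CPM in these libraries, with an SE of 0.54.

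Rpl3, at the peptidyl transferase centre, had 799 and 786 CPM with the control shRNA and 902 and 1170 CPM with the knockdown (0.39, SE 0.20), and Rps29 had 374 and 323 CPM and 480 and 432 CPM (0.39, SE 0.19). The smaller ratios included those of Rpl3l (-0.24, SE 0.53), Rpl4 (-0.22, SE 0.22), Rpl7 (-0.16, SE 0.19) and Rpl18 (-0.08, SE 0.16). In Rpl4 the knockdown libraries were split, at 1340 and 943 CPM: its log2 ratio was 0.01 without the second and -0.50 without the first.

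The counts depended on which control library was kept; with any library left out the shares of all genes on each side rise too. Without shRNA control library 1, 70 genes lay above and 3 below, where 26.2% and 27% of all genes did, and the median ratio was 0.25. Without shRNA control library 2, 26 lay above and 20 below, where 31.4% and 30% of all genes did, and the median was 0.02, so the higher side was then at the background (31.7% of the class). Without knockdown library 1 the counts were 48 and 8 (38.8% and 39.1% of all genes), and without knockdown library 2 they were 39 and 6 (33.4% and 32.4%). Among genes under 1000 bases the ribosomal protein genes had a median of 0.14 and the other genes one of 0.16. With the length trend taken out 14 genes lay above and 13 below (15.8% and 13.1% of all genes), and the median was 0.01.

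The empty vector was set against the control shRNA to see how far the 2 controls differ from each other; this comparison shares the vector libraries with the overexpression comparison and the shRNA control with the knockdown comparison, so their values are not independent. The median log2 ratio of the 82 genes was 0.16, against -0.003 for all genes, with 67 positive. Both vector libraries lay above both shRNA controls in 24 genes and below in 7, close to the background of 24.6% on the higher side and under that of 26.5% on the lower side. With edgeR 0 passed an adjusted p of 0.05 (lowest adjusted p 0.354; background 0%). An unadjusted p under 0.05 was reached by 3 genes, 1 higher (Rpl26) and 2 lower, Rpl4 among them, where 12.5% of all genes passed, and DESeq2 called 0 of the 82 and 2.32% of all genes.

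Rpl26 had 97.8 and 60.7 CPM with the vector against 49.0 and 43.8 CPM with the control shRNA (log2 ratio 0.77, SE 0.26), and Rpl12 had 2080 and 1370 CPM against 1290 and 1040 CPM (0.57, SE 0.26). Rpl4 had a log2 ratio of -0.56 (SE 0.22) from the values given above. Rpl28, Rpl4 and Rpl7 were among the 4 genes of the class (4.88%) whose 3 lowest libraries were knockdown library 2 and both vector libraries, a pattern that 9.14% of all genes showed. The share in the class was below that of all genes. Without shRNA control library 1 the vector comparison had 68 genes above and 7 below, where 34.6% and 38.5% of all genes did. Without shRNA control library 2 it had 24 and 22 (29.3% and 26.8% of the class), both under the 38% and 37.7% of all genes. Without vector library 1 it had 27 and 12 (35.2% and 37.2% of all genes) and without vector library 2 it had 57 and 9 (39.6% and 41.3%). With the length trend taken out it had 43 above and 5 below, where 26.7% and 25.1% of all genes did, and the median was 0.14.

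The overexpression effect minus the knockdown effect tests whether the 2 manipulations differ. Its median over the 82 genes was 0.12, against -0.02 for all genes, and 56 were positive. With edgeR 0 passed (lowest adjusted p 0.65; background 0%), and DESeq2 called 0 of the 82 and 0.116% of all genes. An unadjusted p under 0.05 was reached by 3, among them Rpl4 (0.94, SE 0.31) and Rpl7 (0.89, SE 0.27), where 6.92% of all genes passed. The median was -0.03 without shRNA control library 1, 0.23 without shRNA control library 2, 0.24 without vector library 1, 0.01 without vector library 2 and 0.07 without knockdown library 1.

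Paralogues were compared with their main copies per length. Rpl36al, which encodes nearly the same protein as Rpl36a, had 119 to 151% of the FPKM of Rpl36a across the 8 libraries, and Rpl39l, a paralogue best known from testis, had 49.1 to 67.8% of that of Rpl39. Rps27l, a p53 target gene, had 3.94 to 5.64% of Rps27 and Rpl3l had 0.0527 to 0.158% of Rpl3. The more distant copies, which the rule leaves out, were Rpl22l1 at 365 to 638% of Rpl22 and Rpl7l1 at 4.99 to 19% of Rpl7. In overexpression against vector, Rps27l had 105 and 107 CPM with the vector and 154 and 159 CPM with overexpression (log2 ratio 0.56, SE 0.20), while its main copy Rps27 had 408 and 310 CPM and 439 and 460 CPM (0.32, SE 0.21). Rpl22l1 had 128 and 102 CPM with the vector and 200 and 150 CPM with overexpression (0.60, SE 0.22), and Rpl22, whose protein represses Rpl22l1, had 156 and 134 CPM and 150 and 149 CPM (0.05, SE 0.24). Rpl7l1 was at 486 and 269 CPM with the vector and 237 and 324 CPM with overexpression (-0.43, SE 0.36), the opposite sign to Rpl7. Of the standard genes outside the rule, Fau, a fusion of a ubiquitin-like protein with a small-subunit protein, had 164 and 162 CPM with the vector and 261 and 254 CPM with overexpression (0.66, SE 0.17), and its knockdown libraries had 230 and 190 CPM. In vector against shRNA control Fau had a log2 ratio of -0.44, so it was also low in the vector libraries. Rps3a1 had a smaller overexpression ratio than Fau (0.20, SE 0.19). None of these genes passed an adjusted p of 0.05 in edgeR.

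Translation factors and other genes known to carry TOP tracts lay mostly on the same side as the ribosomal protein genes. Of 16 such genes, 10 lay above both vector libraries in the overexpression group and 0 below, where 24.1% and 23.1% of all genes did. Their median log2 ratio was 0.18, and 0.05 with the length trend taken out, as in the ribosomal protein genes. Eef2, which moves the ribosome along the message, had 2560 and 3040 CPM with the vector and 4540 and 3750 CPM with overexpression (0.56, SE 0.26), and Eif4b, an initiation factor, had 700 and 803 CPM and 969 and 940 CPM (0.34, SE 0.17). In the shRNA control Eef2 had 4070 and 4290 CPM, so it too was low in the vector libraries. Pabpc1, the poly(A)-binding protein, had a ratio of 0.03 (SE 0.19), and Eif3f one of -0.12 (SE 0.19).

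Factors that build ribosomes lay the other way. Of 51 ribosome biogenesis genes tested, 25 had both overexpression libraries below both vector libraries and 3 above, where 23.1% and 24.1% of all genes did, with a median log2 ratio of -0.31. An unadjusted p under 0.05 was reached by 8, all lower, and 0 passed an adjusted p in edgeR. Of all 12115 genes 7.62% reached the unadjusted level in either direction, 428 higher and 495 lower. Gnl3 (nucleostemin), a nucleolar GTPase, had 252 and 198 CPM with the vector and 106 and 133 CPM with overexpression (-0.91, SE 0.38), and Gar1, a protein of the pseudouridylation particles, had 133 and 91.8 CPM and 53.7 and 69.7 CPM (-0.86, SE 0.37). Tcof1 (treacle), which promotes ribosomal RNA transcription, had 379 and 400 CPM and 190 and 267 CPM (-0.77, SE 0.21). The highest ratio was that of Bop1 (0.42, SE 0.24), a factor of large-subunit maturation, whose groups overlapped. Without overexpression library 1 the median of the list was -0.14.

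The shRNA control places these values. The biogenesis genes had a median of 0.37 in vector against shRNA control, with 37 above and 4 below, where 24.6% and 26.5% of all genes did. An unadjusted p under 0.05 was reached by 12, all higher. Of all 12115 genes 12.5% passed in either direction, 781 higher and 739 lower. DESeq2 called 2 of the 51, Mphosph10 and Wdr43, a share near the 2.32% of all genes. Gnl3 had 138 and 130 CPM in the shRNA control, near its overexpression values, and Gar1 59.1 and 60.0 CPM. The overexpression ratio uses the same vector libraries. In the knockdown the list had a median of 0.07 with 2 above and 5 below, both under the 15.1% and 14.1% of all genes, and its libraries differed from each other: without knockdown library 2 the median was -0.26 and without knockdown library 1 it was 0.25. With the length trend taken out the biogenesis median in overexpression was -0.28, close to the value before. That of the ribosomal protein genes went from 0.25 to 0.05. The lengths of the biogenesis genes were not compared with those of the ribosomal protein genes, and the part of length was not tested.

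Of 16 genes of RNA polymerase I and its factors tested, 6 lay below both vector libraries with overexpression and 3 above, where 23.1% and 24.1% of all genes did (median -0.10, and -0.24 without vector library 1). They included Ubtf, which binds ribosomal DNA, at 328 and 272 CPM with the vector and 180 and 212 CPM with overexpression (-0.62, SE 0.21), and Taf1a at 57.6 and 38.6 CPM and 12.6 and 27.0 CPM (-1.28, SE 0.65). Of 13 genes that control TOP messages 6 lay below and 1 above (median -0.16), against the same background. Among them Larp1, which binds the TOP tract, had 549 and 566 CPM with the vector and 277 and 418 CPM with overexpression (-0.68, SE 0.23), with both overexpression libraries also below the shRNA control at 483 and 505 CPM. Cnbp had 1190 and 593 CPM and 482 and 611 CPM (-0.71, SE 0.43), and its ratio rests on vector library 1. Of 17 genes of ribosome surveillance and p53, 4 lay below, at the background of 23.1%, and 2 above, under that of 24.1% (median -0.14, but -0.01 if vector library 1 is left out and -0.24 if vector library 2 is). The p53 target Ccng1 had 177 and 132 CPM with the vector and 238 and 214 CPM with overexpression (0.55, SE 0.23), whereas Cdkn1a (p21) had 295 and 71.5 CPM and 76.1 and 156 CPM and overlapped.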

How the data were processed

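Whole-number read counts per gene, not normalized, were deposited by the authors together with FPKM values. In 12615 of the 12615 genes counted in every library the FPKM equals the count divided by a fixed length and by the total. This held within a relative tolerance of 0.01, so both hold the same measurement. Trimmomatic, HISAT2, Cufflinks, HTSeq, DESeq and mm10 are named in the submitters' processing notes; no version, annotation, strand setting or handling of shared reads is given. A stranded kit for polyadenylated RNA was used, per the labels' protocols. The role in each of the 8 column names set its group.

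Filtering with filterByExpr (minimum count 10) left 12115 genes, with all 82 ribosomal protein genes. edgeR 4.0.16 (R 4.3.3, limma 3.58.1) fitted its quasi-likelihood model to the 4 groups with TMM factors (4 residual and 3.85 prior degrees of freedom, biological coefficient of variation 28%). Benjamini-Hochberg adjustment covered all genes tested, with a threshold of 0.05. DESeq2 1.42.0, other scalings and filters, a length trend, a replicate block and leaving out each library were alternatives. The fit was tested on simulated data. The genes, lists and tests were chosen with earlier results of these data known. Named genes are the 5 largest and 5 smallest ratios in each comparison, the 5 highest and 5 lowest levels, the paralogues, genes with roles of their own and the extremes of the other lists; Rpl35a, Rps15a, Rps14, Rpl28, Rps2 and the genes shown for their tracts were added after their values were seen. Values of 2 genes that the rule names are not reported here. Figures used Python 3.11.15, numpy 2.4.6, pandas 2.3.3 and matplotlib 3.10.9.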

Additional observations from a re-analysis of the deposited data

How the results depend on the processing

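No ribosomal protein gene passed an adjusted p of 0.05 in any of the alternatives run. The counts of all genes called, 0 in each comparison, changed as follows. DESeq2 called 15 genes in knockdown, 1 in overexpression, 281 in vector against shRNA control and 14 in the difference of effects. Fitting only the 2 groups compared called 1 in overexpression and 128 in vector against shRNA control, and no low-count filter called 3 in the latter. Leaving out 1 library at a time called 0 to 1 in knockdown, 0 to 25 in overexpression (25 without overexpression library 2), 0 to 97 in vector against shRNA control (without either overexpression library) and 0 to 1 in the difference; where that leaves a group with 1 library, it is assumed to vary like the other groups. The median log2 ratio of the ribosomal protein genes with a length trend offset was 0.0096 in knockdown and 0.0476 in overexpression. With the same offset it was 0.1358 in vector against shRNA control and 0.0493 in the difference. The 2 controls thus differed more from each other than overexpression from the vector, the reverse of the order without the offset. With the replicate block added the medians were 0.0105 in knockdown, 0.0485 in overexpression, 0.1312 in vector against shRNA control and 0.0496 in the difference. Leaving out 1 library gave 0.024 to 0.2464 in knockdown, 0.1424 to 0.3778 in overexpression, 0.04 to 0.2906 in vector against shRNA control and -0.0335 to 0.2367 in the difference, which reversed to -0.0335 without shRNA control library 1. The cause was not tested.

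The column numbers showed no pairing common to all groups. Over the genes tested, the difference of library 2 from library 1 correlated between groups at -0.37 to 0.36. The highest value was that of the shRNA control with the knockdown, and whether those groups were paired was not tested. The replicate block called 0 genes in each comparison, and crossing the 2 vector numbers in the block, an alternative chosen after seeing the data, called 1 in vector against shRNA control and 0 elsewhere. Of 34 named ribosomal protein genes, 19 changed sign in at least 1 of 19 alternatives in knockdown, 12 in overexpression and 14 in vector against shRNA control, and 10 did in the difference (18 alternatives). Among those with a log2 ratio over 0.3 in size, only Rps27a did, in overexpression and in the difference. The counts above and below both controls without each library, and with the length trend taken out, were also added after seeing the data. Depth does not limit the abundant genes; the lowest library had 12 counts in Rpl3l and 16 in Rpl32l.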
